A study of Mus musculus with 36 samples.

Results

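The miR-7 family of the mouse was followed here in CD4+ T cells that lacked either AGO2 or the AGO1, AGO3 and AGO4 proteins. The members were chosen by name, 3 of 1966 mature miRNA names: mmu-miR-7a-5p, mmu-miR-7a-1-3p and mmu-miR-7b-5p (the prefix for mouse is left out below). A measured value entered this step only as the total count: a name listed at several genomic loci was taken once, as the entry with the most counts over all 36 libraries. The family was chosen with earlier results of these data known, among them the higher miR-7a-5p of AGO134-/- cells at day 7, so everything from that contrast is given as a description with no test. The same holds for every value of the family that draws on the AGO134-/- libraries of day 7, such as their changes over time.

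Small RNA was sequenced from total RNA of C57BL/6J splenic T cells, sorted as CD4+ and TCRb+, in 2 separate experiments. The first held wild-type (WT) and AGO134-/- cells, as naive cells (4 and 4 libraries), after 7 days of Th2 culture (4 and 4) and after 14 days (3 and 3). The second held CD4Cre;R26LSLeYFP cells, called Cre, and CD4Cre;R26LSLeYFP;AGO2f/f cells, called AGO2 knockout, as naive cells (3 and 4) and after 5 days of Th2 culture (3 and 4) by the sample labels. The series text gives 7 days for that culture. All groups of the second experiment carry the Cre driven by the Cd4 promoter, which acts in T lineage cells from the thymus onward, and a Cre-activated fluorescent reporter. The labels do not give the age or sex of the mice and do not say whether replicates came from separate animals, so p-values measure the spread between these libraries, which may be technical. The Argonaute genes themselves were not measured, so the genotypes could not be checked in these data.

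MicroRNAs are cut from hairpin precursors as a duplex of a 5p and a 3p arm. An Argonaute protein keeps one arm, the guide, and the other arm, the passenger, is usually discarded. AGO2 is the one mouse Argonaute with strong slicing activity, and all of them can hold guides that repress messenger RNAs through the seed. For miR-7 the 5p arm is the usual guide. It is best known from neurons and endocrine cells, where the circular RNA Cdr1as carries many miR-7 sites and the long noncoding RNA Cyrano triggers decay of miR-7.

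The mature sequences are shown first because the 2 arms moved apart in these data and because the members differ in few bases. They are printed 5′ to 3′ from RefSeq (GRCm38.p6), with the seed, bases 2 to 8, in capitals.
miR-7a-5p: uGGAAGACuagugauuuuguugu
miR-7b-5p: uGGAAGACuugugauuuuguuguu
miR-7a-1-3p: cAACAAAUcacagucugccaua
miR-7a-2-3p: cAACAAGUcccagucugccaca
Of 1679 mature mouse names searched, the seed of miR-7a-5p was shared with miR-7b-5p and with no other name. Counted from 1 at the 5′ end, miR-7b-5p differs from miR-7a-5p by the substitution A10U, outside the seed, and is 24 instead of 23 bases long. The 3p arms of the 2 miR-7a hairpins differ within the seed, by A7G, and by A10C and U21C.

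miR-7a-5p is encoded at 2 loci, at chr13:58392841-58392863 on the minus strand (Mir7-1) and at chr7:78888295-78888317 on the plus strand (Mir7-2), with the same sequence. miR-7a-1-3p is specific to Mir7-1, at chr13:58392800-58392821. The Mir7-1 precursor, chr13:58392779-58392886, lies in an intron of Hnrnpk, on the same strand as this gene of an abundant RNA-binding protein. It is printed with both mature arms in capitals.
Mir7-1: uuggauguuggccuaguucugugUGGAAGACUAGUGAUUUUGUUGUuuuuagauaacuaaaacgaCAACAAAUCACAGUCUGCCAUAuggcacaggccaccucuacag
Neither Mir7-2 nor Mir7b lies in an annotated host gene. The nearest coding genes are Aen, 7481 bp from Mir7-2, and Fem1a, 13712 bp from Mir7b, which encodes miR-7b-5p at chr17:56243017-56243040.

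The 2 locus entries of miR-7a-5p held 3641 and 3468 counts over all libraries, and the ratio of the second to the first was 0.861 to 1.08 in the 25 libraries with at least 20 counts. These entries do not tell which hairpin the 5p counts came from. The sources used here do not say whether a read matching both loci was counted at each or at 1 of them. If at 1, the entry kept holds only a part of the miR-7a-5p reads. Its levels and its place by level below would then be too low, and the share of the passenger arm too high. Of the 3p arms, miR-7a-1-3p had 997 counts, miR-7a-2-3p 2 and miR-7b-3p 0 in all 36 libraries. miR-7b-5p had 79.

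Libraries of the first experiment held 64264 to 273724 miRNA counts and those of the second 596 to 58357, so the second is far less precise, and its naive libraries (596 to 16461) hardly report on the family. Levels below are CPM, counts per 1000000 miRNA counts, after TMM scaling (TMM CPM), which allows for composition and was made within each experiment. Levels of the 2 experiments are therefore not on a common scale. All 6 T cell miRNAs looked up as a check of identity (such as miR-150-5p and miR-155-5p) had counts in every group. Their levels moved with time and genotype. From naive to day 7 in WT cells edgeR called 4 lower at adjusted p under 0.05 (76.4% of all miRNAs called). From day 7 to day 14 it called 2 lower and 1 higher (50%). Between AGO134-/- and WT cells it called 2 higher at day 7 (14.4%), and 2 higher and 1 lower at day 14 (19.6%). Shifts in naive AGO134-/- cells and AGO2 knockout Th2 cells are given beside those results. Markers of neurons and endocrine cells summed to 19.7 to 200 TMM CPM per library in the first experiment, and miR-137-3p among them had 0 counts. Fewer cells of a type and less RNA per cell cannot be told apart in such bulk samples.

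miR-7a-5p, the guide arm, was a mid-abundance miRNA in WT T cells, in place 123 by mean level among the 844 names counted in naive WT cells. Its levels in the 4 naive WT libraries were 682, 592, 721 and 889 TMM CPM. At day 7 of Th2 culture the WT libraries had 604, 729.8, 922 and 661, a range that overlaps that of naive cells. At day 14 they had 495, 299 and 463, all below every naive and day 7 library.

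In WT cells the fitted change of miR-7a-5p from naive to day 7 was 0.02 ± 0.22 (log2 fold change ± SE; adjusted p = 0.926 by edgeR's quasi-likelihood test, adjusted over 382 miRNAs). From day 7 to day 14 it fell by 0.80 ± 0.25 on the log2 scale (adjusted p = 0.00774), in a comparison that called 50% of the miRNAs tested. Without WT day 14 replicate 2, the lowest library, this fall was no longer called (-0.62, adjusted p = 0.065).

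**Figure D1:**
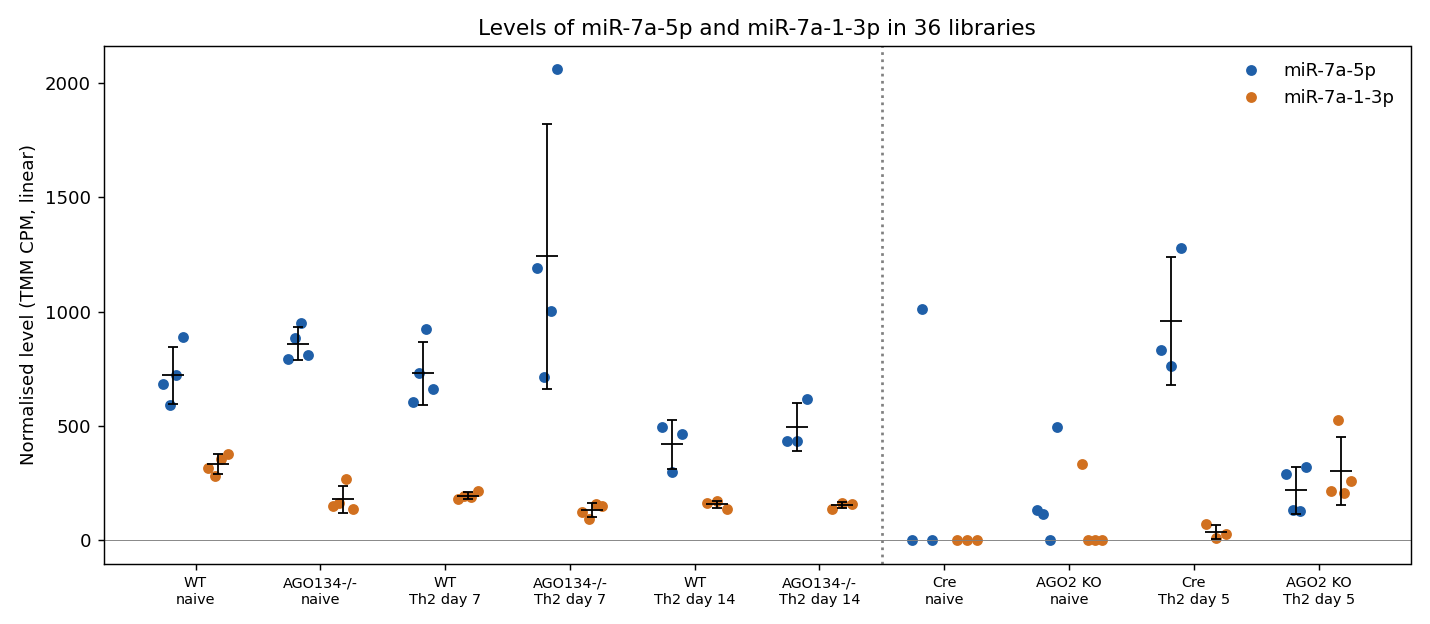
Levels of miR-7a-5p (blue) and miR-7a-1-3p (orange) in TMM CPM on a linear axis for each of the 36 libraries, by genotype and time; horizontal lines and bars are group means and 1 SD, left out for the 2 naive groups right of the dotted line, which hold at most 5 counts per library. Left of the dotted line, miR-7a-1-3p is highest in naive WT cells (283 to 378). Right of it, miR-7a-5p lies above miR-7a-1-3p in every Cre Th2 library. In AGO2 knockout Th2 cells the ranges of miR-7a-5p (130 to 320) and miR-7a-1-3p (208 to 526) overlap.

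The passenger arm, miR-7a-1-3p, had another time course. Its levels were 317, 283, 355 and 378 TMM CPM in naive WT cells, then 179, 194, 189 and 216 at day 7 and 163, 170.1 and 138 at day 14. Every day 7 library was below every naive library, and every day 14 library was below every day 7 library. edgeR's quasi-likelihood test called the fall from naive to day 7 (-0.76 ± 0.17 log2, adjusted p = 0.000163), in a comparison that called 76.4% of miRNAs, 36.9% as lower. A call is thus the usual outcome between these stages, and the call ended when libraries were scaled to the deposited STD entries (-0.15), which moved the median of all miRNAs from 0.11 to 0.73. The step from day 7 to day 14 was not called (-0.32 ± 0.19, adjusted p = 0.184).

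Over the 22 libraries of the first experiment the log2 levels of the 2 arms had a Pearson r of 0.03, given as a description. The 2 arms share library and depth, and the points fall into 6 groups.

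AGO134-/- cells went through the same stages with miR-7a-5p levels of 793, 885, 951 and 809.9 TMM CPM as naive cells. They had 1192, 713, 1002 and 2058 at day 7, and 435, 436 and 616 at day 14. Replicate 4 of day 7 was the highest of all 22 libraries, with 232 counts among 125803. The groups of naive and day 7 cells overlapped, and all day 14 libraries were below all day 7 libraries. As fitted values with no test, the step from naive to day 7 was 0.50 ± 0.23 log2 and the step from day 7 to day 14 was -1.29 ± 0.25. Leaving out each library in turn, the first step ran from 0.16 to 0.69 and the second from -1.49 to -0.96. Over all miRNAs tested, edgeR called 74.1% and 44.8% in these 2 steps, from which nothing is read for the family.

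In the same cells miR-7a-1-3p had 151, 164, 266 and 135 TMM CPM as naive cells, 125, 91.9, 159 and 151 at day 7, and 137, 163 and 159 at day 14. These ranges overlap. The fitted step from naive to day 7 was -0.54 ± 0.23 log2, turned to 0.19 with STD scaling and was -0.24 without naive replicate 3. The step to day 14 was 0.23 ± 0.23.

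In order of mean level in the first experiment, miR-7a-5p stood highest in AGO134-/- cells at day 7 (1241 ± 579, SD, n = 4), then in naive AGO134-/- cells (859.8 ± 72.8, n = 4), WT cells at day 7 (729 ± 139, n = 4) and naive WT cells (721 ± 124, n = 4). The day 14 groups came last, AGO134-/- (495 ± 104, n = 3) before WT (419 ± 105, n = 3). Every pair of neighbours in this order overlapped. For miR-7a-1-3p the order was naive WT (333 ± 42.0), WT day 7 (195 ± 15.6), naive AGO134-/- (179 ± 59.3), WT day 14 (157 ± 16.8), AGO134-/- day 14 (153 ± 13.7) and AGO134-/- day 7 (132 ± 30.2). There, only naive WT cells were apart from their neighbour.

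In naive cells lacking AGO1, AGO3 and AGO4 the passenger arm was lower than in WT cells, while the guide arm passed no test. All 4 naive AGO134-/- libraries had less miR-7a-1-3p (135 to 266 TMM CPM) than all 4 WT libraries (283 to 378). In counts, this was 97 of 574576 against 310 of 892955, a ratio of 0.486 (exact 95% binomial interval 0.383 to 0.613, covering counting error only). The fitted difference was -0.80 ± 0.19 log2 (adjusted p = 0.00417), and edgeR called 18.3% of the 382 miRNAs here, 10.2% as lower. It was called under every alternative run, with adjusted p between 0.000103 and 0.0306. The guide arm differed by 0.27 ± 0.23 (adjusted p = 0.469), with overlapping groups, and its sign turned when libraries were scaled by size alone (-0.0213) or to the STD entries (-0.48).

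Under these scalings the median of all miRNAs was -0.33 and -0.77 instead of -0.05. Relative to that median, miR-7a-5p stood 0.30 to 0.34 higher and miR-7a-1-3p stood between -0.75 and -0.76 under all 4 scalings. Of the 6 T cell miRNAs, 4 were called higher in the same naive knockout cells, such as miR-150-5p (0.68, adjusted p = 0.00236) and miR-181a-5p (0.62, adjusted p = 0.00543), with a median over the 6 of 0.49. Their part in the value of miR-7a-1-3p was not tested.

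At day 7, miR-7a-5p of AGO134-/- cells ran from 713 to 2058 TMM CPM against 604 to 922 in WT, and the groups overlapped. The fitted difference was 0.74 ± 0.22 log2. It came to 0.41 without knockout replicate 4, to 0.43 with library size alone and to 0.069 with STD scaling. miR-7a-1-3p ran from 91.9 to 159 against 179 to 216, with no overlap, and a fitted difference of -0.58 ± 0.20. In counts this was 86 of 689174 against 237 of 1021474, a ratio of 0.538 (0.415 to 0.691). The same comparison called 14.4% of miRNAs, from which nothing is read for the family. The summed neuron and endocrine markers ran from 53.2 to 135 TMM CPM in knockout cells at day 7 against 148 to 200 in WT. Of these markers 2 passed the filter, miR-124-3p (-0.72 log2) and miR-9-5p (-0.48), and neither was called by edgeR. The part of these markers in the values of miR-7a was not tested.

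At day 14 neither arm differed by the test, in a comparison that called 19.6% of miRNAs. miR-7a-5p had 435 to 616 TMM CPM in knockout and 299 to 495 in WT cells (0.25 ± 0.27 log2, adjusted p = 0.544). miR-7a-1-3p had 137 to 163 against 138 to 170.1 (-0.04 ± 0.23, adjusted p = 0.944), and its sign turned when WT replicate 2 or knockout replicate 2 was left out. The ratio of summed counts was 0.879 (0.666 to 1.16) for this arm. This interval covers counting error and not the spread between libraries, so by itself it cannot exclude a loss as deep as in naive cells. The fitted -0.04 ± 0.23 does cover that spread, and the fitted difference in naive cells was -0.80 ± 0.19. The 2 effects are compared directly below.

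Between naive cells and day 14, which leaves day 7 out, the genotype effect of miR-7a-1-3p differed by 0.76 ± 0.30 log2 (edgeR adjusted p = 0.108), in a comparison that called 6.81% of miRNAs. This difference passed the threshold without WT naive replicate 2 (0.94, adjusted p = 0.0493) or knockout naive replicate 3 (1.07, adjusted p = 0.0238). For miR-7a-5p it was -0.0203 ± 0.36 (adjusted p = 0.994), and it turned positive with library size only (0.12) and with STD scaling (0.28). This comparison was added after the other results had been seen. As fitted values with no test, the effect at day 7 minus that in naive cells was 0.47 ± 0.32 for miR-7a-5p and 0.22 ± 0.28 for miR-7a-1-3p, and the effect at day 14 minus that at day 7 was -0.49 ± 0.35 and 0.54 ± 0.30. Over all miRNAs edgeR called 2.36% and 12% in these 2 comparisons. Contrasts of genotype and of time share libraries and are not independent of each other.

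**Figure D2:**
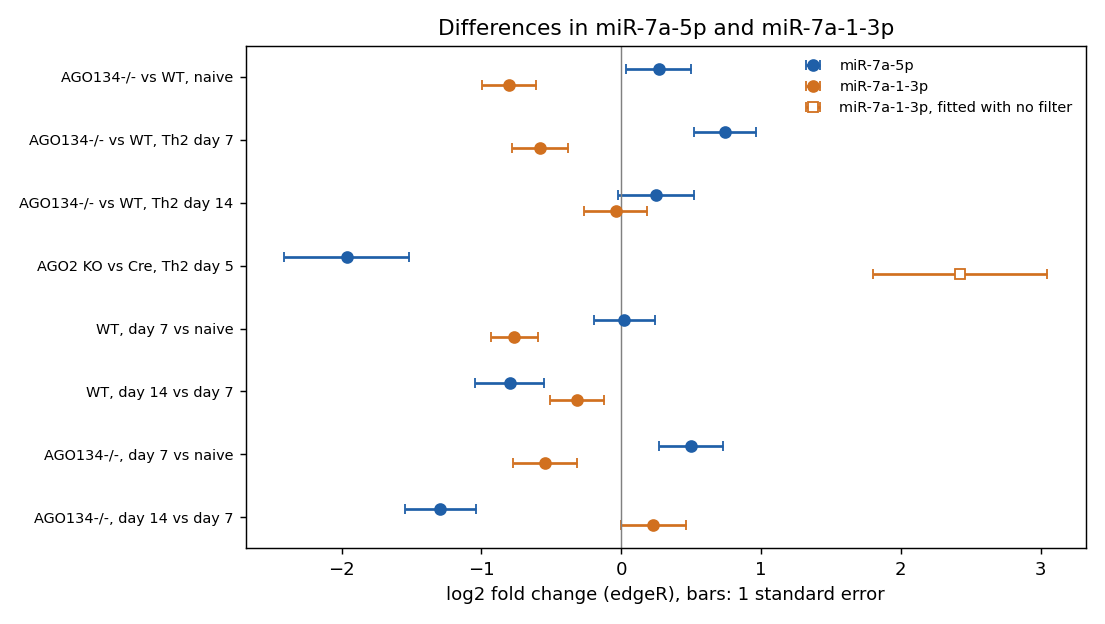
edgeR log2 fold changes (x axis) of miR-7a-5p (blue) and miR-7a-1-3p (orange) in 8 comparisons, with bars of 1 standard error. The open square is the passenger arm in AGO2 knockout Th2 cells, fitted with no filter on low counts (2.43); the guide arm lies at -1.96 in the same comparison.

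Since both arms are counted in the same library, the share of the passenger arm does not depend on how libraries are scaled. In naive WT cells miR-7a-1-3p made up 31.7%, 32.3%, 33.0% and 29.8% of the counts of both arms. In naive AGO134-/- cells it made up 16.0%, 15.6%, 21.9% and 14.3%. Every knockout library was below every WT library. The mean log2 ratio of passenger to guide was 1.17 lower in the knockout, with a two-sided exact permutation p = 0.0286, the smallest that 4 against 4 libraries allow, and 0.0857 after Benjamini-Hochberg adjustment over the 3 genotype comparisons other than day 7.

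At day 7 the shares were 22.9%, 21.0%, 17.0% and 24.6% in WT and 9.50%, 11.4%, 13.7% and 6.83% in AGO134-/- cells, again with no overlap, and the log2 ratio was 1.25 lower. At day 14 they overlapped, with 24.7%, 36.3% and 22.9% in WT and 24.0%, 27.2% and 20.5% in AGO134-/- cells. The day 14 difference of -0.29 had an exact permutation p = 0.5 (0.5 adjusted), where 3 against 3 libraries allow no less than 0.1.

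**Figure D3:**
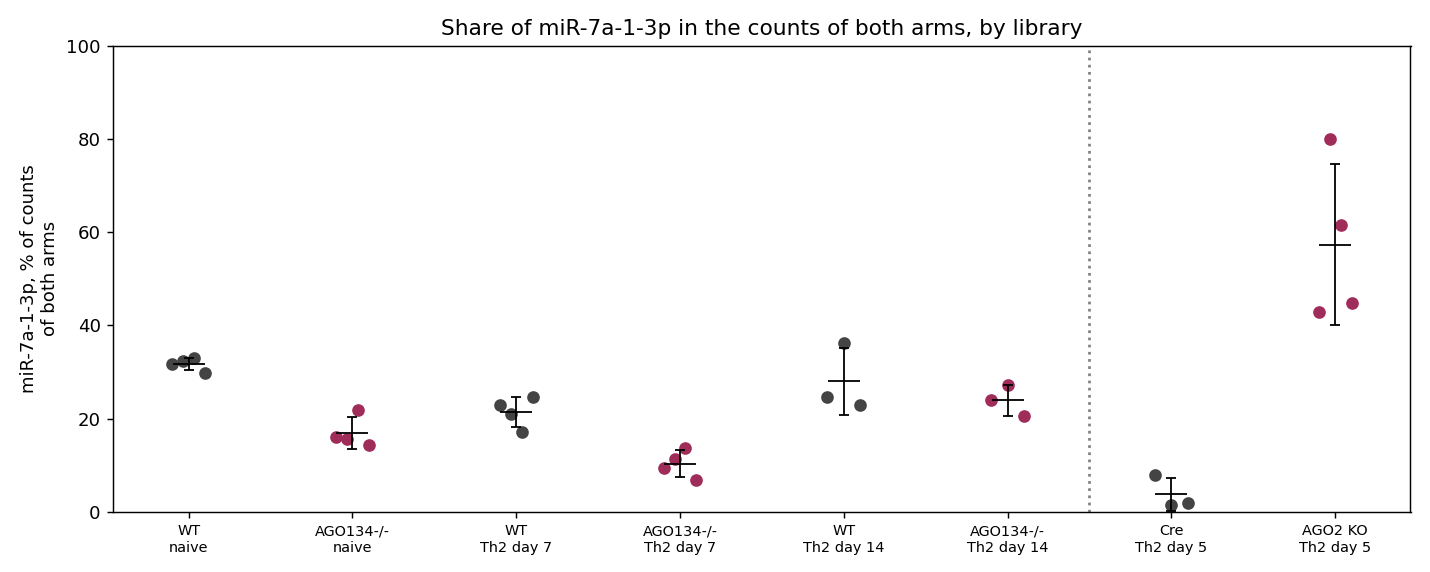
Share of miR-7a-1-3p in the summed counts of miR-7a-1-3p and miR-7a-5p (y axis, percent) per library in 8 groups. Controls are grey and knockouts purple, with means and 1 SD. miR-7a-5p enters with 1 of its 2 locus entries. The 2 naive groups of the AGO2 experiment are left out for want of counts. AGO134-/- libraries lie below WT libraries in naive cells and at day 7, and AGO2 knockout libraries (42.9% to 80.0%) lie above Cre libraries (1.52% to 7.81%).

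Other hairpins give the background for this. In naive cells 91 hairpins had both arms at a mean of at least 5 counts, and the minor arm was lower relative to the major arm in all knockout libraries for 17 of them, 18.7%, miR-7a included. The difference of miR-7a was exceeded in this direction by 6 hairpins, miR-331, miR-181a, miR-92a, miR-27b and miR-466m among them, and the median of all was -0.23. At day 7 the groups lay apart in this direction for 25 of 109 hairpins, 22.9%, and 2 hairpins, one of them let-7f, had a lower difference than miR-7a. A lower share of the minor arm in AGO134-/- cells was thus not particular to miR-7a.

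In AGO2 knockout Th2 cells the guide arm was lower, and the passenger arm higher, than in Cre Th2 cells. miR-7a-5p had 59, 65 and 50 counts in the 3 Cre libraries, or 834, 762 and 1279 TMM CPM. It had 8, 1, 5 and 16 counts in the 4 AGO2 knockout libraries, or 289, 131, 129.9 and 320.3 TMM CPM. All knockout libraries were below all Cre libraries. The fitted difference was -1.96 ± 0.45 log2 (adjusted p = 0.00111 over 98 miRNAs by edgeR), and the test called 44.9% of miRNAs in this comparison, 25.5% as lower. It was called under every alternative run, with values between -3.54 and -1.62. In the same comparison 2 of the 6 T cell miRNAs were called, both higher: miR-150-5p by 3.43 log2 (adjusted p = 6.72e-06) and miR-181a-5p by 1.42 (adjusted p = 0.0223). Both were lower in Cre Th2 than in naive Cre cells (-3.81 and -2.39, adjusted p = 3.77e-06 and 0.00228), in a step where edgeR called 56.1% of miRNAs. Of the same 6, miR-142a-5p was also called lower in that step (-1.21, adjusted p = 0.0356). miR-155-5p (1.63, adjusted p = 0.00347) and miR-146a-5p (3.32, adjusted p = 0.000722) were called higher. The part of these T cell miRNAs in the values of miR-7a was not tested.

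miR-7a-1-3p had 5, 1 and 1 counts in the Cre libraries and 6, 4, 8 and 13 in the AGO2 knockout libraries, although the latter were shallower (11218 to 40720 against 39794 to 58357 miRNA counts). This is 70.7, 11.7 and 25.6 against 217, 526, 208 and 260.2 TMM CPM, with every knockout library higher. Summed, 31 of 114816 counts stood against 7 of 153946, a ratio of 5.94 (exact 95% binomial interval 2.57 to 16.0). The miRNA did not pass the filter on low counts. Fitted with no filter, it rose by 2.43 ± 0.62 log2 (adjusted p = 0.00158 over 620 miRNAs), where 3.39% of miRNAs were called higher. This call ended with DESeq2 (2.71, adjusted p = 0.093) and with STD scaling (1.18, adjusted p = 0.333), and without any 1 library it stood between 1.96 and 3.55 with adjusted p up to 0.0378.

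The passenger arm therefore made up 7.81%, 1.52% and 1.96% of the counts of both arms in Cre Th2 cells, again with 1 locus entry of miR-7a-5p. In AGO2 knockout Th2 cells it made up 42.9%, 80.0%, 61.5% and 44.8%. The Cre shares were below those of WT Th2 cells in the first experiment, 17.0% to 24.6% at day 7 and 22.9% to 36.3% at day 14. Experiment, culture time, genotype and depth differ between these controls and cannot be told apart. The mean log2 ratio was 5.04 higher in AGO2 knockout than in Cre Th2 cells. The exact permutation p was 0.0571, the smallest that 4 against 3 libraries allow, and 0.0857 adjusted over the same 3 comparisons. Of 37 hairpins with enough counts, 8 (21.6%) had a higher minor arm share in all knockout libraries. Those were miR-7a, miR-25 (3.66), miR-210 (3.23), miR-30c (2.97), miR-92a (2.19), miR-23a (2.09), miR-150 (1.47) and miR-21a (0.90), by their difference in log2 ratio. None of the 37 had a larger difference than miR-7a, the median was 0.39, and no hairpin (0%) had a lower minor arm share in all knockout libraries. Hairpins entered with a mean of at least 5 counts per arm over both groups. miR-7a-1-3p passed this through the knockout libraries, since the Cre libraries held 5, 1 and 1 counts of it. Its place among the hairpins rests on these low counts, and nothing is read from it.

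**Figure D4:**
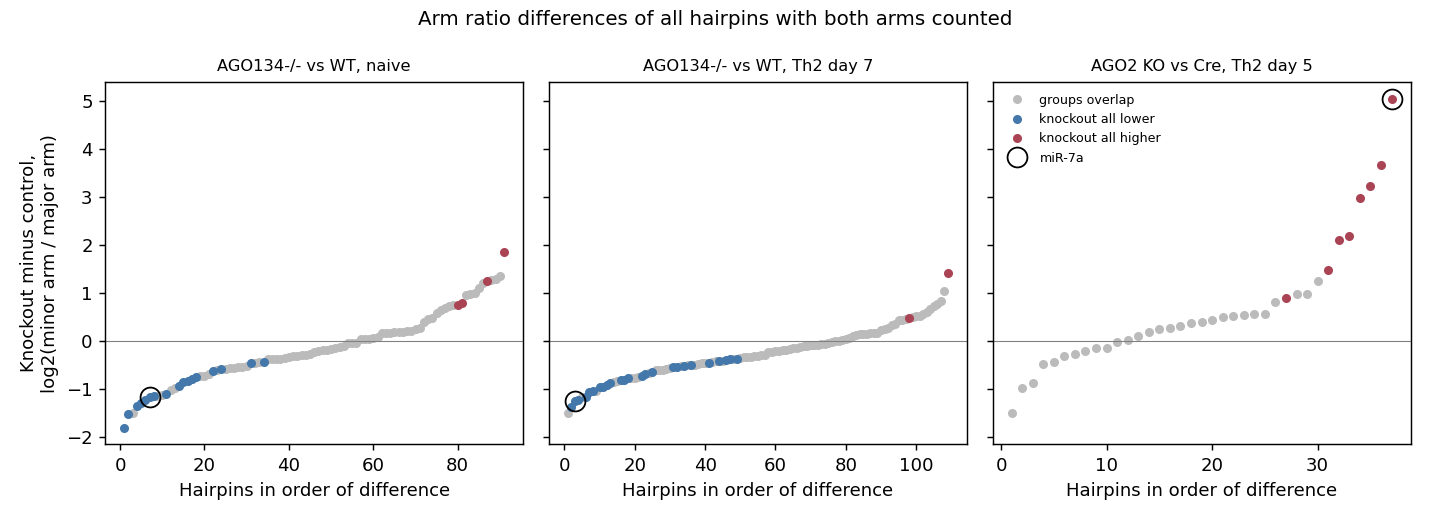
Difference between knockout and control in the log2 arm ratio, minor over major (y axis), for all hairpins with both arms counted, in order of that difference (x axis), in 3 comparisons. Blue and red mark hairpins whose knockout libraries all lie below or all above the control libraries. miR-7a, circled, lies near the lower end in AGO134-/- cells and at the top, at 5.04, in AGO2 knockout Th2 cells. In that last comparison its passenger arm passed the filter on counts through the knockout libraries.

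The AGO2 and AGO1/3/4 effects on the family were set side by side in one fit over all 36 libraries, as the effect in AGO2 knockout Th2 cells at day 5 minus that in AGO134-/- Th2 cells at day 7. For miR-7a-5p the difference was -2.60 ± 0.43 log2 and for miR-7a-1-3p it was 3.44 ± 0.59. The alternatives gave -3.62 to -2.25 and 2.36 to 4.59. Of the 376 miRNAs in this fit 23.1% were called, from which nothing is read for the family. The day 7 effect, known when the family was chosen, enters this difference, so it is a description with no test, and experiment, culture time, control genotype and depth cannot be told apart from the Argonautes lost.

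Naive cells of the second experiment gave few counts of the family. Cre libraries held 0, 1 and 0 counts of miR-7a-5p and AGO2 knockout libraries 2, 1, 0 and 3, among 11395 and 44247 miRNA counts in all. Their ratio of 1.55 has an interval of 0.187 to 71.1, and edgeR called no change (0.89 ± 1.64 log2, adjusted p = 0.817; 9.18% of miRNAs called). miR-7a-1-3p had 0 counts in all naive Cre libraries, which allows up to 263 CPM over the group. It had 5 counts in AGO2 knockout library D and 0 in the others. A difference as large as that in Th2 cells was not detectable at this depth.

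Over time, Cre cells went from 1 count of miR-7a-5p to 174, a ratio of 12.9 (interval 2.28 to 512), and edgeR called the rise (3.29 ± 1.16 log2, adjusted p = 0.0211; 56.1% of miRNAs called). It ended without naive library A (1.77) or C (2.72). AGO2 knockout cells went from 6 to 30 counts, a ratio of 1.93 (0.789 to 5.66) and 0.43 ± 0.77 log2 (adjusted p = 0.637; 51% called). The difference between these changes was -2.86 ± 1.58 (adjusted p = 0.241; 12.2% called).

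miR-7b-5p, with the same seed as miR-7a-5p, was close to the limit of counting throughout. It had 0 to 8 counts per library in the first experiment. By group mean it had 9.27 to 25.2 TMM CPM, and made up 1.32% to 3.43% of the summed counts of miR-7a-5p and miR-7b-5p. It did not pass the filter and was not tested by edgeR. Its log2 ratio to miR-7a-5p overlapped between AGO134-/- and WT cells in all 3 comparisons, with differences of -0.48, 1.11 and 0.29 in naive cells, at day 7 and at day 14 (exact permutation p = 0.4 in naive cells and 0.8 at day 14, both 0.8 when adjusted over these 2). In the second experiment it had 1 count, in naive AGO2 knockout library D. In Th2 cells it had 0 of 153946 counts in Cre and 0 of 114816 in AGO2 knockout cells, which allows up to 19.5 and 26.1 CPM.

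miR-671 is known for slicing Cdr1as, the circular RNA with many miR-7 sites. Both of its arms were tested in the first experiment and neither was called between genotypes at any stage. In naive WT cells the 2 arms together had 751 to 972 TMM CPM. From naive to day 7 in WT cells its 5p arm rose by 1.15 log2 (adjusted p = 0.00213) and its 3p arm fell by 1.11 (adjusted p = 3.03e-07), and from day 7 to day 14 they changed by -1.24 and 0.71 (adjusted p = 0.00345 and 0.000832). In AGO134-/- cells the 3p arm changed by -1.09 and 1.08 over these steps (adjusted p = 3.89e-06 and 2.22e-05), and the 5p arm was not called. Over all miRNAs tested, edgeR called 76.4% and 50% in the 2 WT steps and 74.1% and 44.8% in the 2 AGO134-/- steps. In Th2 cells of the second experiment each arm had at most 18 counts per group and was not tested.

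Like miR-7, some miRNAs are known to be removed by target-directed decay or to rise when the ZSWIM8 ubiquitin ligase that carries it out is lost. Of 6 such miRNAs 5 were tested in the first experiment. None was called between genotypes in naive cells or at day 7 (medians -0.10 and -0.00 log2, against -0.05 and -0.02 over all miRNAs tested). Over all miRNAs tested, edgeR called 18.3% and 14.4% in these 2 comparisons. At day 14 only miR-503-5p was called (0.52, adjusted p = 0.0431), where 19.6% of all miRNAs tested were called. In AGO2 knockout Th2 cells 1 of the 6 was tested, miR-30c-5p, and it fell by 1.30 log2 (adjusted p = 0.00175). That comparison called 44.9% of miRNAs, 25.5% as lower. From naive to day 7 in WT cells 4 of 5 rose, such as miR-322-5p (1.29) and miR-503-5p (1.09), and miR-30b-5p fell (-0.32), where 76.4% of all miRNAs tested were called; miR-7a-5p stood at 0.02 over the same step.

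Across the 22 libraries of the first experiment, the miRNAs whose log2 levels ran most alike with miR-7a-5p were miR-141-3p (Pearson r = 0.72), miR-297a-5p (0.72), miR-16-5p (0.71), miR-122-5p (0.68) and miR-15b-5p (0.66), among 381 miRNAs with a group mean of at least 10 CPM. Their levels differ widely, from group means of 14.3 to 59.6 TMM CPM for miR-297a-5p to 13705 to 27323 for miR-16-5p. These correlations share libraries, depth and stage, and are a description. Markers of other cells, which the CD4+ and TCRb+ sort would remove, moved by stage. Of the neuron and endocrine markers 2 passed the filter, miR-124-3p and miR-9-5p. edgeR called both higher from naive to day 7 in WT cells (1.82 and 2.03 log2, adjusted p = 0.00715 and 2.65e-05). From day 7 to day 14 miR-9-5p was called lower (-0.94, adjusted p = 0.0259) and miR-124-3p was not called (-1.41, adjusted p = 0.0503). These 2 steps called 76.4% and 50% of all miRNAs. AGO134-/- cells had 6.51 and 2.97 from naive to day 7, with 0 counts of miR-124-3p when naive. The 6 epithelial markers summed to 3397 to 4908 TMM CPM in naive libraries and to 575 to 1251 in Th2 libraries of the first experiment. In WT cells miR-200a-3p, miR-200b-3p, miR-200c-3p and miR-203-3p were called lower from naive to day 7 (-2.64 to -1.53), while miR-141-3p (-0.15, adjusted p = 0.565) and miR-429-3p (-0.50, adjusted p = 0.159) were not called. The endothelial and stromal markers summed to 112 to 570 TMM CPM in naive and to 506 to 1030 in Th2 libraries. Of these, both arms of miR-126a rose from naive to day 7 in WT cells (1.998 and 2.52), miR-143-3p was not called (0.51, adjusted p = 0.207), and miR-143-3p fell by 3.57 from day 7 to day 14 (adjusted p = 1.07e-05). Red cell and platelet markers ran from 66.6 to 804 TMM CPM, and the myeloid marker miR-223-3p had 0 counts at day 7. The part of such cells in the levels of miR-7a over time was not tested.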

How the data were processed

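The deposited files hold counts of 2119 entries per library, made by the authors and used as deposited: 2110 entries name a mature miRNA and 9, named STD, name none and have no stated meaning. Between 35.7% and 56.9% of the counts of AGO134-/- and WT libraries were STD, and between 32.0% and 86.7% in the AGO2 experiment; these stayed out of library sizes and tests. The submitters' processing notes name GRCm38 as the build. Aligner and counter: not given in the sources used here. The labels give single-end and the series text paired-end reads.

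Each experiment was fitted whole with edgeR 4.0.16 (R 4.3.3): TMM scaling, filterByExpr with a minimum count of 10, quasi-likelihood tests, Benjamini-Hochberg adjustment over all miRNAs tested, and calls at adjusted p under 0.05. SE is the absolute log2 fold change over the root of F. Arm ratios used log2((3p + 0.5)/(5p + 0.5)) per library and a two-sided exact permutation test (SciPy 1.17.1), leaving out libraries with 0 counts of both. Intervals are exact binomial at 95%, and limits at 0 use 3 counts. The steps were tested on simulated data: at day 7 of the first experiment, with 368 miRNAs simulated, 87% of those changed by 1 log2 unit were called, and for AGO2 in Th2 cells, with 88, 76.2%.

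Alternatives were DESeq2 1.42.0 and its size factors, library size only, STD scaling, no filter, all locus entries, fits of the compared groups alone, replicate blocks and leaving out libraries. Fits of AGO2 Th2 cells with no filter, leaving out naive Cre libraries B and C together, the day 14 minus naive effect and adjusting the exact tests without day 7 were added after seeing the data. Named miRNAs are the members, names sharing their seed or hairpin name, the 5 closest patterns, and examples from the lists. Members and lists were chosen with earlier results of these data known. No pairing by replicate label was seen: of 37 same-label correlations 2 were above 0.1. With few libraries per group and low counts in the second experiment, this check cannot exclude shared animals. In that experiment naive and Th2 libraries of a genotype carry the same letters. No 2 libraries of a group agreed within counting noise (48 pairs).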

Additional observations from a re-analysis of the deposited data

Results flagged for a closer look

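miR-7a-1-3p in naive AGO2 knockout cells had 5 counts in library D and 0 in the other libraries, so the gap to the nearest library was the whole range of the group (gap over range 1, above Dixon's 95% critical value for 4 libraries). miR-7b-5p in the same group had its 1 count in the same library D, which also gives a gap over range of 1. miR-7a-1-3p in AGO2 knockout Th2 cells was highest in library E, at 526 TMM CPM from 4 counts among 11218, with a gap over range of 0.835; without it the passenger arm still stood 2.31 log2 above Cre cells with no filter. These groups are 3 of the 18 groups of 4 libraries looked at over the members. For normally distributed values chance alone marks about 1 in 20. That rate does not hold for counts near 0, since a group with counts in only 1 library always has a gap over range of 1. The AGO2 effect in Th2 cells differed from the AGO1/3/4 effect at day 7 by -2.60 log2 for miR-7a-5p and by 3.44 for miR-7a-1-3p, in a fit over both experiments. These 2 values contain the day 7 effect that was known when the family was chosen, so they are a description and no p is given.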

How the results depend on the processing

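Of 544 recomputed values over 35 results, 460 kept their direction and their side of the threshold, 47 no longer passed it, 11 newly passed it and 26 changed sign. For values that draw on the AGO134-/- libraries of day 7 only the value is given, since they are not tested. The causes were not tested, except that leaving out a library makes the smallest p of an exact test larger. The called fall of miR-7a-1-3p in naive AGO134-/- cells and that of miR-7a-5p in AGO2 knockout Th2 cells kept their calls in every setting run. AGO134-/- against WT, miR-7a-5p in naive cells was -0.0213 with library size only and -0.48 with STD scaling. At day 7 miR-7a-5p was 0.43, 0.0693 and 0.68 with library size only, STD scaling and the 2 groups alone; miR-7a-1-3p was -0.67 with no filter, -0.60 with all locus entries, -0.58 with DESeq2 and -0.58 with the replicate block. At day 14 miR-7a-5p was -0.19 with STD scaling. From naive to day 7 in WT cells, STD scaling gave 0.66 for miR-7a-5p and -0.15 for miR-7a-1-3p. In AGO134-/- cells miR-7a-5p was 0.53 with DESeq2 size factors, 0.66 with library size only, 1.21 with STD scaling, 0.55 with no filter and 0.69 with all locus entries. There miR-7a-1-3p was -0.38 with library size only, 0.19 with STD scaling, -0.50 with no filter, -0.32 with all locus entries, -0.49 with DESeq2 and -0.54 with these groups alone. The AGO2 effect on miR-7a-5p in Th2 minus naive cells was -4.16 with STD scaling. miR-7a-1-3p in AGO2 knockout Th2 cells, fitted with no filter, was 1.18 with STD scaling and 2.71 with DESeq2.

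Leaving out each library in turn, the AGO134-/- difference at day 7 ran from 0.41 to 0.94 for miR-7a-5p and from -0.72 to -0.43 for miR-7a-1-3p; for the latter at day 14 it ran from -0.14 to 0.0391. In WT cells miR-7a-5p ran from -0.12 to 0.13 between naive and day 7 and from -0.94 to -0.62 between day 7 and day 14. In AGO134-/- cells from naive to day 7 it ran from 0.16 to 0.69, and miR-7a-1-3p from -0.71 to -0.24. The change of the AGO134-/- effect on miR-7a-1-3p from naive to day 7 ran from -0.0191 to 0.52. Its change from naive to day 14 ran from 0.61 to 1.07, and that of miR-7a-5p from -0.20 to 0.17, with 0.12 for library size only and 0.28 for STD scaling. For miR-7a-5p the naive AGO2 difference ran from -0.36 to 5.59, the rise in Cre cells from 1.77 to 7.75 and the change in AGO2 knockout cells from -0.26 to 0.81. Without naive Cre libraries B and C together these first 2 values were 5.89 and 7.73. The log2 arm ratio difference ran from -1.32 to -1.10 in naive cells, from -1.41 to -1.05 at day 7 and from -0.46 to 0.000921 at day 14; that of miR-7b-5p to miR-7a-5p at day 14 ran from -0.29 to 0.87. The replicate block changed no other call.

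The number of miRNAs called moved more than the members: STD scaling called 0 higher and 204 lower in naive AGO134-/- cells (31 and 39 with TMM), 1 and 128 at day 7 (33 and 22; 13 and 22 with no filter) and 4 and 65 in AGO2 knockout Th2 cells (19 and 25). Library size and STD scaling could not be set against an outside measure of total miRNA. In the naive libraries of the second experiment depth limits every statement on the family.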
